A study of Homo sapiens with 2 samples.

Results

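Genes of the proteasome were compared between 1 array of a CD2-positive and 1 array of a CD2-negative subclone of HMC1. A set of 39 genes was taken by symbol, covering the subunits of the core particle, the immunoproteasome, the regulatory particle and the activator caps. Of these, 34 were measured by at least 1 probe set naming no other gene, out of 19775 genes with such a probe set, and 29 reached the floor for being compared, an intensity of 64 (log2 6) on the brighter array, out of 3564. HMC1 is a cell line that was established from a human mast cell leukaemia. Its cells had been stained with an anti-CD2 antibody and separated by fluorescence-activated sorting into a subclone that displays the adhesion receptor CD2 and a subclone that does not. Both derive from the same parent line, no treatment is labelled, and each stands for 1 subclone on 1 Affymetrix U133 Plus 2.0 array, so no value below has an error between replicates and none was tested. Pairs of values are RMA-normalised intensities, the CD2-positive array first, and they come from many cells at once, so that fewer cells with an RNA and less of it per cell cannot be told apart.

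The proteasome degrades proteins tagged with ubiquitin. Its barrel-shaped core particle is made of outer rings of alpha subunits and inner rings of beta subunits, of which PSMB5, PSMB6 and PSMB7 carry the peptide-cutting sites. A regulatory particle of a base, with a ring of ATPases that unfold the substrate, and a lid, which removes ubiquitin, sits on the ends of the barrel. In blood cells and after interferon gamma, PSMB8, PSMB9 and PSMB10 can take the places of the 3 cutting subunits, and the resulting immunoproteasome yields peptides suited to MHC class I.

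All subunit genes compared were less than 2-fold apart between the subclones. Over the 29 genes compared, the median log2 difference (CD2-positive minus CD2-negative) was -0.02, beside -0.05 over all 3564 genes compared, and differences ran from -0.55 (PSMD12) to 0.25 (PSMC3). None of the 29 was 2-fold apart, the size counted as called, beside 1.96% of all genes compared (1.21% higher and 0.758% lower). With so few subunit genes, this lies near that share. At the smaller size of 0.3 on the log2 scale, 3 subunit genes were lower (PSMB6, PSMD4 and PSMD12), which is 10.3% of the 29 beside 17.9% of all genes, and none was higher, beside 13.1%. At 0.5, PSMD4 and PSMD12 were lower, 6.90% beside 5.86%, and no subunit gene was higher, beside 5.81%. These counts depend on the scale. Centred on the hybridisation controls described below, 3 subunit genes were higher at 0.3 (PSMC3, PSMD1 and PSMD2; 10.3%, beside 27.4% of all genes) and 2 lower (PSMD4 and PSMD12; 6.90%, beside 6.48%), and at 0.5 none was higher (beside 12.2%) or lower (beside 2.50%). The 13 constitutive core genes compared had a median of -0.06 and the 14 genes of the regulatory particle one of -0.01. The standard deviation of the differences was 0.19 over the subunit genes and 0.39 over all genes compared, and the middle 50% spanned 0.23 and 0.37. Over the genes that reached log2 7 on the brighter array, the standard deviations were 0.19 for 25 subunit genes and 0.40 for 1800 genes. Of the subunit genes 16 of 29 (55.2%) lay within 0.13 of 0, the standard deviation that genes with several probe sets give for 1 of them, and of all genes 34.7% did; centred on the controls, 10 of 29 (34.5%) did, beside 31.2%.

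**Figure D1:**
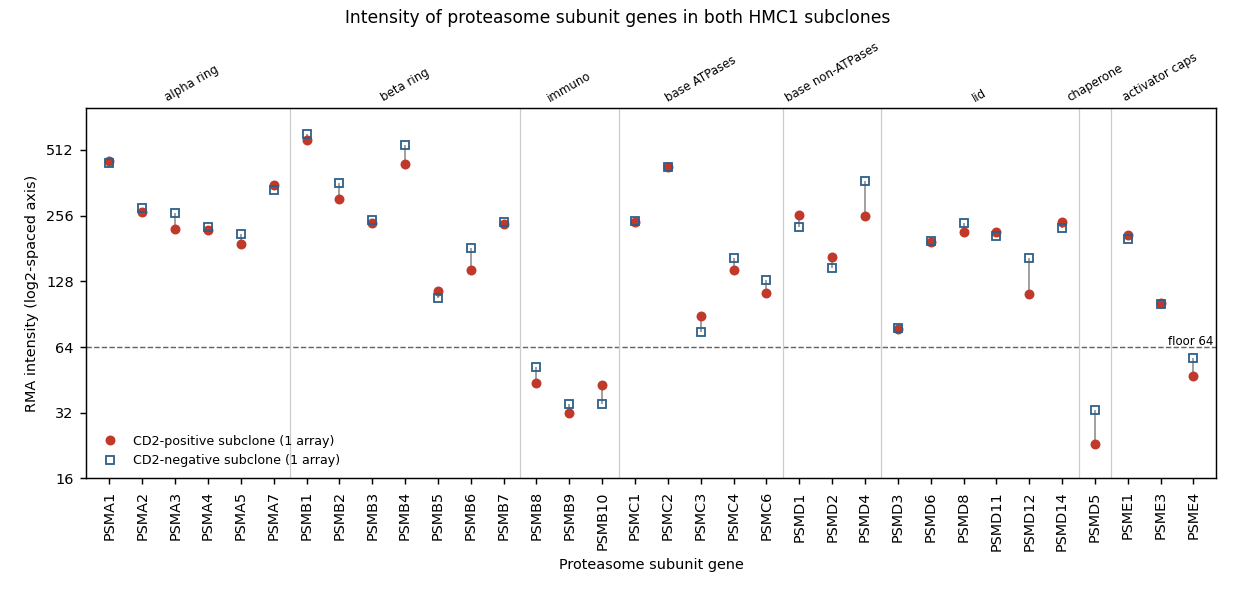
RMA intensity (log2-spaced axis) of the 34 subunit genes with a value, grouped by place in the complex, on the CD2-positive array (filled red circles) and the CD2-negative array (open blue squares), with 1 array each and a grey line joining them; the dashed line is the floor of 64. The symbols nearly coincide for most genes, and the gap is widest for PSMD4, PSMD12 and, below the floor, PSMD5; heights of different genes cannot be compared with each other.

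Promoter sequences are shown for genes toward the ends of the range (PSMB4 and PSMD12 low, PSMC3 high) and for PSMB9 and PSMB10 of the immunoproteasome, each as the 250 bases before the transcription start. They are RefSeq sequences of GRCh38.p14 on the gene's own strand, 5′ to 3′. Capitals mark matches, on either strand, to the core of the antioxidant response element TGACNNNGC, to which NFE2L1 binds, the core of the interferon-stimulated response element GAAANNGAAA, or the CCAAT box. No 2 matches overlap in these sequences.
PSMB4, chr1:151399323-151399572, plus strand: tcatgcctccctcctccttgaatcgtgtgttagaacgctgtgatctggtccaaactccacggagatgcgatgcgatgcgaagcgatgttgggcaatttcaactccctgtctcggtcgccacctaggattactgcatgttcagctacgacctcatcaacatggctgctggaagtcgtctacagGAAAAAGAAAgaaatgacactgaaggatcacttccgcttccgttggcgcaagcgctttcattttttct
PSMD12, chr17:67366578-67366827, minus strand: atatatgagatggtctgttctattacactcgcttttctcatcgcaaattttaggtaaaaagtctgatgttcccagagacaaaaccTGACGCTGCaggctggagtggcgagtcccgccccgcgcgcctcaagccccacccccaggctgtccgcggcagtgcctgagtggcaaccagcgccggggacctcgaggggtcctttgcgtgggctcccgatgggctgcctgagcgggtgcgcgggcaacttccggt
PSMC3, chr11:47426440-47426689, minus strand: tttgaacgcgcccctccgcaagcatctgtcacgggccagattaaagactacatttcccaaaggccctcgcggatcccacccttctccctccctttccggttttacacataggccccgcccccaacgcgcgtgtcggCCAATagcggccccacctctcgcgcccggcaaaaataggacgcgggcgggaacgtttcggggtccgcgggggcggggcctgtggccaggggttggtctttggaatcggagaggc
PSMB9, chr6:32853942-32854191, plus strand: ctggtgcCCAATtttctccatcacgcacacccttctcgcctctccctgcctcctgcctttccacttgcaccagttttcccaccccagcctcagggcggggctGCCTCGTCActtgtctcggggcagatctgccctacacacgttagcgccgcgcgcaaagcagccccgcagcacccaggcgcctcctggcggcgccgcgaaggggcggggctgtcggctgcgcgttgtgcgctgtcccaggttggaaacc
PSMB10, chr16:67936851-67937100, minus strand: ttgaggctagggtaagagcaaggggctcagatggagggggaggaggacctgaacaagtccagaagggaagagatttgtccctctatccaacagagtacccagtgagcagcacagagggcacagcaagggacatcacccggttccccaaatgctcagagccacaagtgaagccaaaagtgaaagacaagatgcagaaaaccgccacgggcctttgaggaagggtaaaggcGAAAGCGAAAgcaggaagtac
In these windows PSMB4 and PSMB10 held the interferon motif, PSMD12 and PSMB9 the antioxidant motif (in PSMB9 on the opposite strand), and PSMC3 and PSMB9 a CCAAT box. The first-listed promoters of 34 of the 39 genes were found in the RefSeq table. The antioxidant motif was in 8 of them (23.5%, beside 11.0% of the 27305 genes in the table), the interferon motif in 4 (11.8%, beside 3.07%) and CCAAT in 15 (44.1%, beside 33.0%). Subunit genes with and without the antioxidant motif had median differences of -0.03 (4 compared) and -0.01 (20 compared), and with and without CCAAT -0.01 (12 compared) and -0.035 (12 compared). The 2 compared genes with the interferon motif, PSMA4 (-0.06) and PSMB4 (-0.29), had a median of -0.17. The 22 compared without it had a median of -0.01. A match is a run of letters and shows no binding.

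The sign of such small differences depends on the scale. The hybridisation controls are foreign transcripts added for the hybridisation step, not to the RNA at the start. All 18 of their probe sets were dimmer on the array of the CD2-positive cells (median -0.18). Centring on them adds 0.18 to every difference. The median then became 0.16 for the subunit genes and 0.14 for all genes compared. Of the 29 subunit genes 10 were higher, 18 lower and 1 equal (62.1% lower, beside 55.7% of all genes, and 34.5% higher, beside 41.9%), but 22 were higher and 7 lower once centred on the controls (75.9% higher, beside 69.2% of all genes, and 24.1% lower, beside 30.8%), and 15 higher and 14 lower after a lowess correction on level. Differences below are as deposited and can be read against the median of all genes, -0.05, or 0.14 once centred on the controls. The 7 that stayed lower after centring on the controls were PSMA3, PSMB2, PSMB4, PSMB6, PSMC6, PSMD4 and PSMD12.

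**Figure D2:**
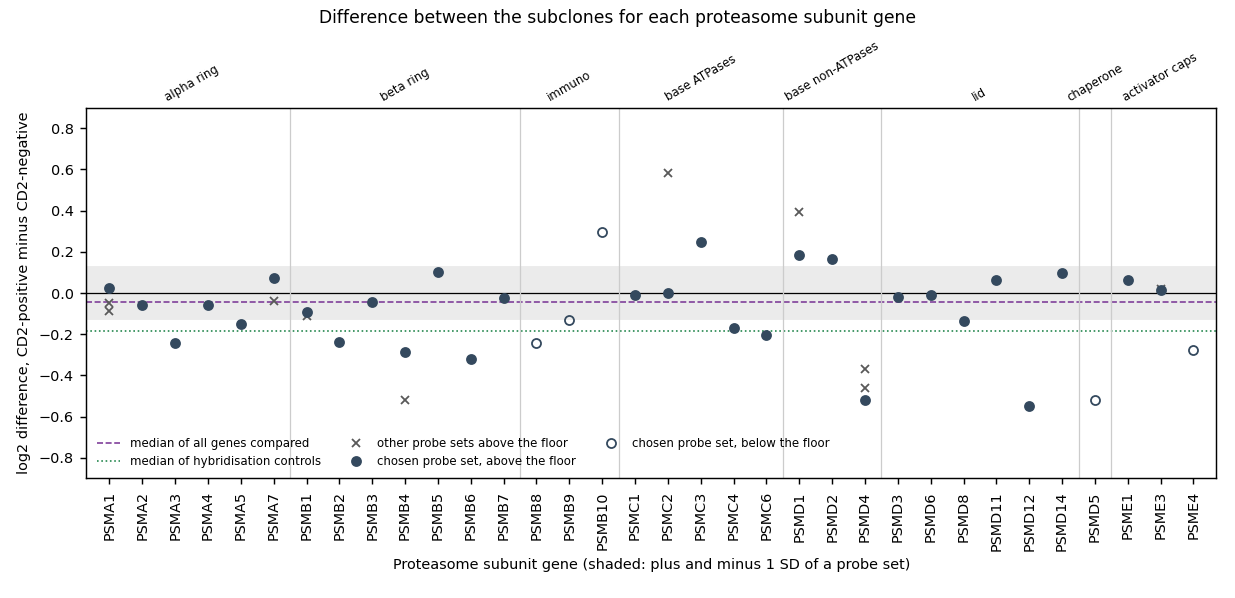
The log2 difference (CD2-positive minus CD2-negative) of each of the 34 subunit genes, filled where its probe set reached the floor and open where it did not, with crosses for other probe sets above the floor, a band of 0.13 on each side of 0 for the spread of a single probe set, and lines at the median of all genes compared (-0.05) and of the hybridisation controls (-0.18). The circles run from -0.55 to 0.30, and above the line of the controls a gene would read higher in the CD2-positive subclone on that scale.

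The RNA of both arrays was checked on a few other genes. CD2 itself read 219 and 13, following the labels, and Bacillus probe sets, which human RNA does not match, read 1 to 4. Mast cell markers were present, with 6 of 7 measured genes of the list reaching the floor. All 6 were higher in the CD2-positive subclone, beside 41.9% of all genes (69.2% when centred on the controls). CPA3 was higher by 2.56 on the log2 scale and KIT by 0.05, which is within the spread of a single probe set, 0.13. Of 21 measured markers of T and NK, B, myeloid, erythroid and stromal or epithelial cells none reached the floor, 15 were at the Bacillus level on both arrays, and their summed intensity was 97 and 108. Signal at the 3' end over that at the 5' end was 1.38 and 1.59 for ACTB and 1.003 and 1.068 for GAPDH, and its part in the small differences was not tested.

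The alpha ring, which forms the gate of the barrel, had the narrower range of the core rings. Its 6 genes compared had a median of -0.06 with a range from -0.24 to 0.07. Of these, 4 were lower (66.7%, beside 55.7% of all genes) and 2 higher. Centred on the controls the median was 0.12, and only PSMA3 stayed lower. PSMA3 had the most negative difference, at 223 with and 264 without surface CD2 (1.18-fold lower). PSMA5 followed with 190 and 211, a difference of -0.15. PSMA2 read 267 and 278. PSMA4 likewise stood at 219 against 228, and both differences of -0.06 lie near the median of all genes. PSMA1 (456 and 448) and PSMA7 (353 and 336) were the 2 higher genes, by 0.03 and 0.07. Other probe sets of these 2 genes had the opposite sign, down to -0.09 and -0.04, so no direction can be given for either. The probe sets used for PSMA1, PSMA7, PSMD4 and PSME3 are of the kind whose name ends in x, which can also match related sequences. PSMA6 was represented only by probe sets that also name PRORP, and the brighter of them read 493 and 554 (-0.17). The dimmer lay below the floor at 41 and 34 and had the opposite sign (0.27).

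In the beta ring 6 of 7 genes were lower on the CD2-positive array (85.7%, beside 55.7% of all genes). The median was -0.09, turning to 0.09 when centred on the hybridisation controls. With that centring only PSMB2, PSMB4 and PSMB6 of the ring stayed lower. The brightest probe sets of the structural subunits PSMB1 to PSMB4 were lower, with a median of -0.16 (0.02 when centred on the controls), but PSMB1 turned to 0.07 when its probe sets were averaged, 1 of which read 4 and 3. PSMB4 read 443 and 540 (-0.29), and its other bright probe set, at 396 and 567, gave -0.52. PSMB2, at 306 and 361, differed by -0.24. PSMB1 with 568 and 605 (-0.09) and PSMB3 with 238 and 245 (-0.04) lay close to the median of all genes. The cutting subunits went different ways. PSMB6, the caspase-like subunit, read 145 and 181 (-0.32) from a single probe set. Among the brightest probe sets of the constitutive core genes this was the largest difference. PSMB7, the trypsin-like subunit, was nearly level at 235 and 239. PSMB5, the chymotrypsin-like subunit and main target of the drug bortezomib, was the only gene of the ring to read higher, at 115 against 107 (0.10).

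Each immunoproteasome subunit had 1 probe set, which read above the Bacillus level of at most 4 and below the floor of 64 in both subclones. How much of the RNA is present cannot be read from such a level. PSMB8 stood at 44 in CD2-positive and 52 in CD2-negative cells, a difference of -0.24 that rounding of the deposited values leaves between -0.27 and -0.21. PSMB9, encoded near PSMB8 within the MHC region, read 32 and 35 (-0.13, between -0.17 and -0.09). The 30 compared genes around this pair had a median of 0.05, and the 4 compared within 15 RefSeq genes on each side one of 0.33. PSMB10 read 43 and 35 (0.30, between 0.26 and 0.33). Set against the constitutive subunit that each replaces, the difference of PSMB8 was 0.35 below that of PSMB5 (-0.35), that of PSMB9 was 0.19 above that of PSMB6, and that of PSMB10 was 0.32 above that of PSMB7. The 3 pairs thus did not share a direction. The medians were -0.13 for the immunoproteasome and -0.02 for the constitutive trio, a gap of -0.10 over 3 genes on each side, with the inducible subunits below the floor. Centring leaves these contrasts as they are, and the lowess correction gave -0.13 for the gap of the medians.

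The base of the regulatory particle held the gene with the highest difference and the one with the second lowest. Of its ATPases 5 were compared, with a median of -0.01 (0.17 when centred on the controls). PSMC3 read 89 and 75, and its 0.25 was the highest of the 29 genes. PSMC1 was level at 240 and 242, while PSMC4 (145 and 163, -0.17) and PSMC6 (113 and 130, -0.20) were lower. PSMC2 read 429 on both arrays with its brightest probe set. Another of its probe sets, at 72 and 48, gave 0.58, the largest gap among the probe sets of a subunit gene that reached the floor. The scaffold proteins PSMD1 and PSMD2, which dock ubiquitin receptors and shuttle factors, were the next highest after PSMC3. PSMD1 read 257 and 226 (0.19), and its other probe set gave 0.39 in the same direction. PSMD2 read 166 and 148 (0.17), while the 30 compared genes around it on chromosome 3 had a median of -0.20 and the 3 nearest, within 15 RefSeq genes on each side, one of 0.10.

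PSMD4, the ubiquitin receptor between base and lid, read 256 in CD2-positive and 367 in CD2-negative cells (1.43-fold lower, -0.52). With it, the 3 non-ATPase genes of the base had a median (0.17) and a mean (-0.06) of opposite sign. The 3 brighter probe sets of PSMD4 ran from -0.52 to -0.37, and 5.33% of all genes compared had a lower difference. Its gene lies on chromosome 1 close to that of PSMB4, with 7 RefSeq genes between them, of which 2 were compared (PI4KB at -0.38 and RFX5 at -0.38). Most genes of the region read lower. Of the 30 compared genes around PSMD4, other subunits left out, 25 were negative, with a median of -0.26. Around PSMB4 24 were negative with a median of -0.26. Most genes are the same in both windows, so these are not separate counts. Within 15 RefSeq genes on each side, PSMD4 and PSMB4 each had 6 compared neighbours, all negative, with medians of -0.32 and -0.38. The narrower windows overlap as well. The 407 compared genes of chromosome 1 had a median of -0.18. The part of the shared position in the differences of PSMD4 and PSMB4 was not tested. Without both genes the median over the other 27 subunit genes was -0.02 and their standard deviation 0.17.

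**Figure D3:**
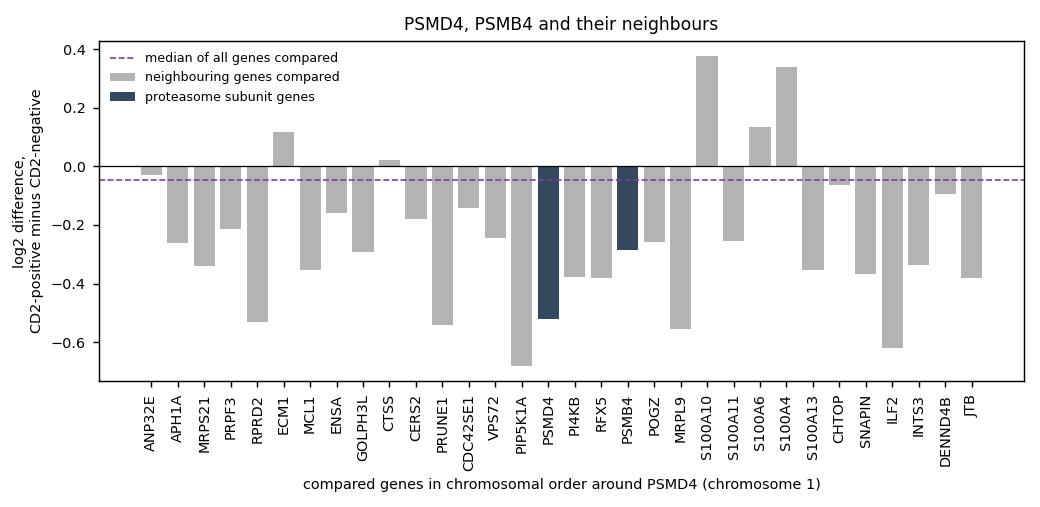
The log2 difference (CD2-positive minus CD2-negative) of PSMD4, PSMB4 (dark bars) and the compared genes around them in chromosomal order on chromosome 1 (grey bars), with a dashed line at the median of all genes compared, -0.05; bars start at 0. Of the 30 grey genes 25 are negative, and both subunit genes lie within the range of their neighbours; centring on the hybridisation controls would raise every bar by 0.18.

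In the lid only PSMD12 was more than 0.3 apart among the genes compared. Its 6 genes compared had a median of -0.01 (0.17 when centred on the controls). PSMD14, the enzyme that cuts ubiquitin off the substrate, read 240 and 224 (0.10). PSMD11, a scaffold of the lid, stood at 215 and 206 (0.06). PSMD3 (77 and 78) and PSMD6 (194 and 195) were 1 unit apart, a gap that rounding allows to be 0.00, and PSMD8 read 216 and 237 (-0.13). PSMD12, another lid scaffold and one of the genes whose promoter is printed, had the lowest difference of the 29 genes at 112 against 164 (1.46-fold lower, -0.55). Its second probe set lay below the floor at 23 and 15 and had the opposite sign (0.62), so the direction for PSMD12 rests on 1 probe set. The 30 compared genes around PSMD12 on chromosome 17 had a median of -0.12, and the 3 within 15 RefSeq genes one of 0.16.

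The activator caps are alternative caps that open the barrel without ubiquitin. PSME1, a subunit of the interferon-inducible cap, read 209 and 200 (0.06). PSME3, the nuclear cap, was level at 102 and 101, with 0.01 and 0.02 from the 2 probe sets that reached the floor. PSME4, the large single-chain cap, lay below the floor at 47 and 57 (-0.28). PSME2, the partner of PSME1, was read only by a probe set that also names a microRNA gene, at 245 and 301 (-0.30). PSMD5, a chaperone that holds ATPases during assembly of the base, was below the floor at 23 and 33 (-0.52). PSMC5, PSMD7 and PSMD13 were not analysed here.

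**Figure D4:**
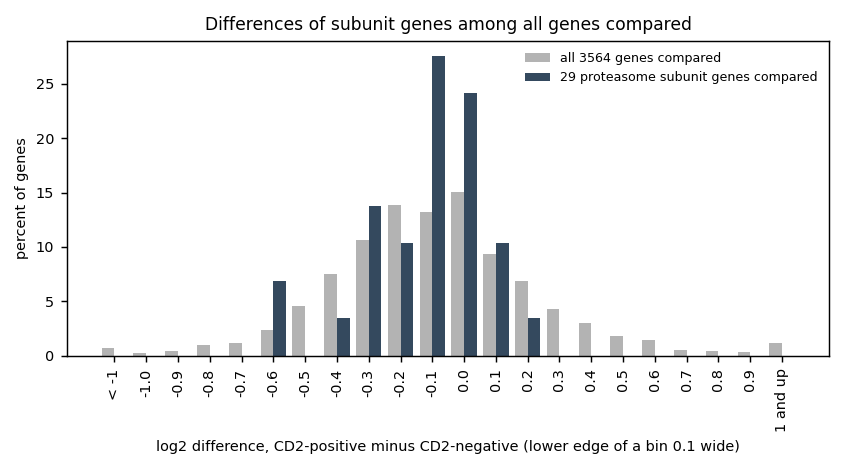
Percent of genes in each bin of log2 difference (CD2-positive minus CD2-negative, bins 0.1 wide labelled by their lower edge, outer bins open) for all 3564 genes compared (grey) and the 29 subunit genes compared (dark); bars start at 0. The subunit genes lie between -0.55 and 0.25, with 8 in the bin just below and 7 in the bin just above 0, while the grey bars reach past 1 both ways; centring on the hybridisation controls moves both sets by 0.18.

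Parts of the same system outside the complex were read from lists of related genes. Among those compared none was called at 2-fold, beside 1.96% of all genes compared. With so few genes in the lists, this lies near that share. Assembly chaperones had 4 of 5 compared genes lower (80.0%, beside 55.7% of all genes), with a median of -0.16 (0.02 when centred on the controls). PSMD10, a chaperone of the ATPase ring also known as gankyrin, read 121 and 204 (-0.75), with -0.75 from both of its probe sets, and 29 of its 30 compared neighbours on chromosome X were negative with a median of -0.49 (-0.43 for the 5 within 15 RefSeq genes). PSMG2, which pairs with PSMG1 to build the alpha ring, read 197 and 249 (-0.34), among neighbours with a median of -0.02 (0.40 for the 4 within 15 RefSeq genes). Of proteins bound to the proteasome 5 of 6 were lower (83.3%, beside 55.7% of all genes), with a median of -0.06. This median turns to 0.13 when centred on the controls, and of the lower genes only UCHL5 and TXNL1 then stay lower. The other lower genes lay within 0.13 of 0. The deubiquitinase gene UCHL5 read 55 and 78 (-0.50) and the thioredoxin-like gene TXNL1 292 and 391 (-0.42). Their compared neighbours on chromosomes 1 and 18 had medians of -0.38 and -0.36, and those within 15 RefSeq genes -0.37 (3 genes) and -0.09 (2 genes). The proteasome inhibitor gene PSMF1, below the floor at 35 and 57 (-0.70), lies on chromosome 20, where its compared neighbours had a median of -0.52 (-0.61 for the 6 within 15 RefSeq genes). The part of chromosomal position in these differences was not tested.

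Genes that act ahead of the proteasome had differences of either sign. Of the shuttle factors, which carry ubiquitin-tagged proteins, 2 of 3 compared were lower (66.7%, beside 55.7% of all genes). They were UBQLN2 at 97 and 117 (-0.27) and RAD23B at 292 and 343 (-0.23). Probe sets of the remaining gene that reached the floor ran from -0.415 to 0.035, so no direction can be given for it. The 30 compared genes around UBQLN2 on chromosome X had a median of -0.26, and the 1 within 15 RefSeq genes read 0.0. The part of this position was not tested. The ubiquitin-activating enzyme gene UBA1 read 124 and 171 (-0.46) and the ubiquitin gene UBB 2418 and 2507 (-0.05). In the unfoldase group 2 of 4 were higher, 1 lower and 1 equal, with NPLOC4 at 93 and 77 (0.27) and FAF2 at 61 and 77 (-0.34). NFE2L1, the transcription factor that raises proteasome genes when the proteasome is inhibited, read 127 and 130. Its difference of -0.03 was at about the median of all genes. Another NFE2L1 probe set that reached the floor gave 0.10, so no direction can be given. NFE2L2, a relative of NFE2L1, read 182 and 219 (-0.27). Among interferon-linked genes only IRF1 was compared, at 59 and 66 (-0.16), and its other probe set that reached the floor gave -0.33. Beside the immunoproteasome genes in the MHC region, the peptide transporter genes TAP1 (28 and 50, -0.84) and TAP2 (30 and 35, -0.22) were below the floor in both subclones.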

How the data were processed

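RNA of 2 HMC1 subclones, 1 array each, was measured on Affymetrix U133 Plus 2.0 arrays. The deposited intensity values had been normalised by the authors with RMA (Affymetrix Expression Console version 1.1), as the submitters' processing notes list. They are whole numbers on a linear scale, as seen in the values, and no source used here describes the back-transformation or the rounding. Quantile normalisation within RMA removes differences in total signal, and rounding makes low values coarse.

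Values were converted to log2 with Python 3.11.15 and pandas 2.3.3. Of 54675 probe sets, 41097 carried 1 gene symbol in the platform annotation, updated through Entrez identifiers to RefSeq symbols, 1801 carried several and 11777 were unnamed, and the latter kinds were left out. The probe set with the highest mean log2 of both arrays stood for a gene, which was compared where the higher array reached log2 6 (intensity 64). It was called at a log2 difference of 1. The spread of a single probe set, 0.13, is the standard deviation, over 937 genes, of the gap between the 2 brightest probe sets divided by the square root of 2. It covers probe behaviour only. With 1 array per group no test was run, and the number of arrays limits the precision. Neighbours are up to 15 compared genes on each side in RefSeq order, a window chosen after seeing the data. The narrower window was the compared genes among 15 RefSeq genes on each side. Only the steps from intensities to differences per gene were tested on simulated data, with an upward shift larger than the size of call. Smaller differences, the neighbour windows, the centring on controls, the lowess correction and the motif search were not simulated. Alternatives were other floors, other sizes of call, the mean of all probe sets, probe sets with plain identifiers, centring on all probe sets or on the hybridisation controls, and a lowess correction with a span of 0.3.

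All 39 members are named. From each related list the 2 compared genes with the largest difference were named, with PSMF1, TAP1 and TAP2 added after their values were seen. The members and lists were chosen with earlier results of these data known.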

Additional observations from a re-analysis of the deposited data

How the results depend on the processing

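Under every alternative run the subunit genes had 0 called at 2-fold. For so few genes this lies near the share of all genes, 1.96% as reported. The medians of the subunit genes stayed within 0.13 of the reported ones with a floor of log2 5, no floor or averaged probe sets. They did so too with centring on all probe sets and with the lowess correction. Subunit genes lower and higher at 0.3 were 3 and 0 as reported, 2 and 3 when centred on the controls, 2 and 0 after the lowess correction and with averaged probe sets, 4 and 0 at log2 5 and without a floor, and 1 and 1 with plain identifiers. At 0.5, 2 were lower as reported, 0 when centred on the controls, with averaged probe sets or with plain identifiers, 1 after the lowess correction, and 3 at log2 5 and without a floor; none was higher except PSMC2 with plain identifiers. Centring on the hybridisation controls, which by construction adds 0.18 to every difference, gave 22 subunit genes higher and 7 lower and medians of 0.16 (all), 0.12 (constitutive core), 0.17 (regulatory particle), 0.12 (alpha ring), 0.091 (beta ring), 0.16 (cutting beta subunits), 0.018 (other beta subunits), 0.17 (ATPases), 0.35 (base non-ATPases), 0.17 (lid) and 0.22 (caps). Medians of related lists became 0.024 (assembly chaperones), 0.13 (bound proteins), -0.05 (shuttle factors), -0.076 (ubiquitin genes), 0.23 (unfoldase) and 0.032 (transcription regulators). A floor of log2 7 left 2 cutting beta subunits with a median of -0.17, assembly chaperones at -0.34 and shuttle factors at -0.10. Ubiquitin genes had a median of -0.078 at log2 5 and without a floor, and transcription regulators -0.017 without one. Plain identifiers left 17 subunit genes, 5 of them higher, with medians of -0.17 for ATPases and -0.10 for the unfoldase group, and PSMC2 at 0.58.

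Over all genes, calls of higher and lower were 43 and 27 as reported, 77 and 48 at log2 5, 24 and 8 at log2 7, 307 and 380 without a floor, 26 and 13 when the probe sets of a gene were averaged, 25 and 12 with plain identifiers, and 71 and 14 when centred on the controls. That centring moved the share of higher calls from 61.4% to 83.5%. Among single subunit genes, 12 of 34 changed sign under it, all lying between -0.18 and 0, 4 under the lowess correction (PSMB7, PSMC1, PSMD3 and PSMD6) and 2 of 25 when probe sets were averaged (PSMA1 and PSMB1). Rounding changed the sign of none. No paired analysis was possible because each group holds 1 array. PSMB8, PSMB9, PSMB10, PSMD5 and PSME4 lay below the chosen floor of 64, though above the Bacillus level.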
